A study of Rattus norvegicus with 23 samples.

Results

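The genes described here are 9 genes of transforming growth factor beta (TGF-beta) signaling and of the extracellular matrix, measured in the gastrocnemius, a calf muscle, of rats fed chow or a high fat, high sugar (HFHS) diet. They are the ligand gene Tgfb1, the receptor genes Tgfbr1 and Tgfbr2, the matrix protein genes Fn1, Fbn1, Sparc and Postn, the crosslinking enzyme gene Lox and the protease inhibitor gene Timp1. They were taken by symbol from the deposited count table, and are 9 of the 18903 named genes in it. Each symbol matched a single entry, and all 9 passed the filter on low counts.

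TGF-beta is secreted in a latent form that is held in the matrix. Once released it binds the type II receptor, which recruits and phosphorylates the type I receptor, and this in turn phosphorylates Smad transcription factors that raise the expression of many matrix genes. In skeletal muscle the pathway is known for its part in fibrosis, in the behavior of fibroblasts and fibro-adipogenic progenitors, and in restraining muscle growth and repair.

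The RNA came from 23 Wistar rats with 1 library per rat, 5 female rats on chow (F-Chow), 6 female rats on HFHS (F-HFHS), 6 male rats on chow (M-Chow) and 6 male rats on HFHS (M-HFHS). All were kept at 30 °C, and the diets were given for 14 weeks from 4 weeks of age. At 12 weeks the females had their ovaries removed and from then on drank water with 0.5 µM estradiol, apart from a sham-operated subset that the labels do not identify, so the sex comparison includes this surgery and hormone treatment. Groups were taken from the codes of the columns. For 3 females the sample titles give the other diet: rat 205 is coded chow and titled HFHS, and rats 224 and 225 are coded HFHS and titled chow. A heat map in the study heads the male diets the other way round from the codes, so each male diet direction given here rests on the codes.

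Total counts per rat lay between 21152221 and 51305283. The Y-linked genes Kdm5d and Eif2s3y reached 11.0 and 31.9 CPM (counts scaled to a common library size) or more in all 12 males and at most 0.0354 and 0.171 CPM in the 11 females. Cyp1a1, an enzyme gene induced by dietary and other ligands of the aryl hydrocarbon receptor, was at 0 in the 5 F-Chow rats, between 0.425 and 3.49 CPM in F-HFHS, at most 0.0339 CPM in M-Chow and between 0.136 and 2.21 CPM in M-HFHS. Among the 3 females of conflicting labels, rat 205 was at 0, and rats 224 and 225 at 0.931 and 3.49 CPM. By this gene alone, these rats went with their codes and not with their titles. In males too, every rat coded HFHS had more Cyp1a1 than every rat coded chow, the direction seen in females. Genes that define muscle fibers were abundant in every library, with a summed level of 181300 to 264400 CPM over the 7 markers found. The 20 hepatocyte markers were also detected, all 20 of them lower in males than in females, with summed levels of 44.6 to 554.2 CPM in females and 38.3 to 80.5 CPM in males. Of the variance of the hepatocyte marker level between rats, 57.2% lay between the sexes. The level also went with diet in females, with a median sum of 523.8 CPM in F-Chow and 186.3 CPM in F-HFHS. By diet in females 0 of the 20 markers had a positive log2 difference (median -1.41), and 0 were called in edgeR. In males the median sums were 47.5 CPM on chow and 41.6 CPM on HFHS. Levels are CPM scaled by TMM, a correction for library composition, and compare rats for 1 gene but not 1 gene with another, because they are not divided by transcript length. In bulk tissue, fewer cells of a type and less RNA per cell cannot be told apart.

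Promoter windows were looked up because 5 of the 9 genes differed by sex in the same direction. RefSeq windows of the GRCr8 assembly were matched for 7 of the 9 members, namely Tgfb1, Tgfbr1, Tgfbr2, Fbn1, Sparc, Postn and Timp1. The 250 bases before the start of 3 of them are printed 5′ to 3′. Tgfbr2 and Sparc are shown because they were also higher in males within the HFHS diet, and Postn because its difference by sex was the widest of the 9. Capitals mark matches, on either strand, to CAGAC (the core of the Smad binding element), GGGCGG (the GC box bound by Sp1) and TATAAA (the TATA box).
Tgfbr2, chr8:124761470-124761719, minus strand: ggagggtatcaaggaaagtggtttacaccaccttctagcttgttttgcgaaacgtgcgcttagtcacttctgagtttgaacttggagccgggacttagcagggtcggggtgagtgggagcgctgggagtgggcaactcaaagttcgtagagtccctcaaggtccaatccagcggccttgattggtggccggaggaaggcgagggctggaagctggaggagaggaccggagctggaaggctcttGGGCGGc
Sparc, chr10:40038817-40039066, minus strand: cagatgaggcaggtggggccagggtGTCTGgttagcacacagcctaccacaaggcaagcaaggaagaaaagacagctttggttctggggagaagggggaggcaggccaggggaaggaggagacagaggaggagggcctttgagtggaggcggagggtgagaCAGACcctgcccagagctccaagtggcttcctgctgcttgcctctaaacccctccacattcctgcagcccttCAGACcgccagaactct
Postn, chr2:140677811-140678060, plus strand: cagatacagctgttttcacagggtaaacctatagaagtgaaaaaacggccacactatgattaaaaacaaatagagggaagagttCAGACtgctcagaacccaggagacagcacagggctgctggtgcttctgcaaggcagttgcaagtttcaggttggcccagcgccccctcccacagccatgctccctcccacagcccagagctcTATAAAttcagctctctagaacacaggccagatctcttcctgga
The Tgfbr2 window held a GC box that began 7 bases before the start and no CAGAC. The Sparc window held CAGAC 3 times, starting 225 (on the minus strand), 89 and 17 bases before the start of the gene. In Postn, CAGAC began 166 bases and the TATA box 44 bases before the start. Within windows of 300 bases that also take in the first 50 bases of the gene, CAGAC was in 3 of the 7 members and in 50.06% of all 33469 windows, the GC box in 3 of 7 and 33.06%, and the TATA box in 1 of 7 and 14.22%. TGACTCA (the AP-1 site) was in 0 of 7 and 4.631% of windows, and the palindromic estrogen response element in 0 of 7 and 0.02689%. These matches describe the letters of the windows and do not show binding.

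**Figure D1:**
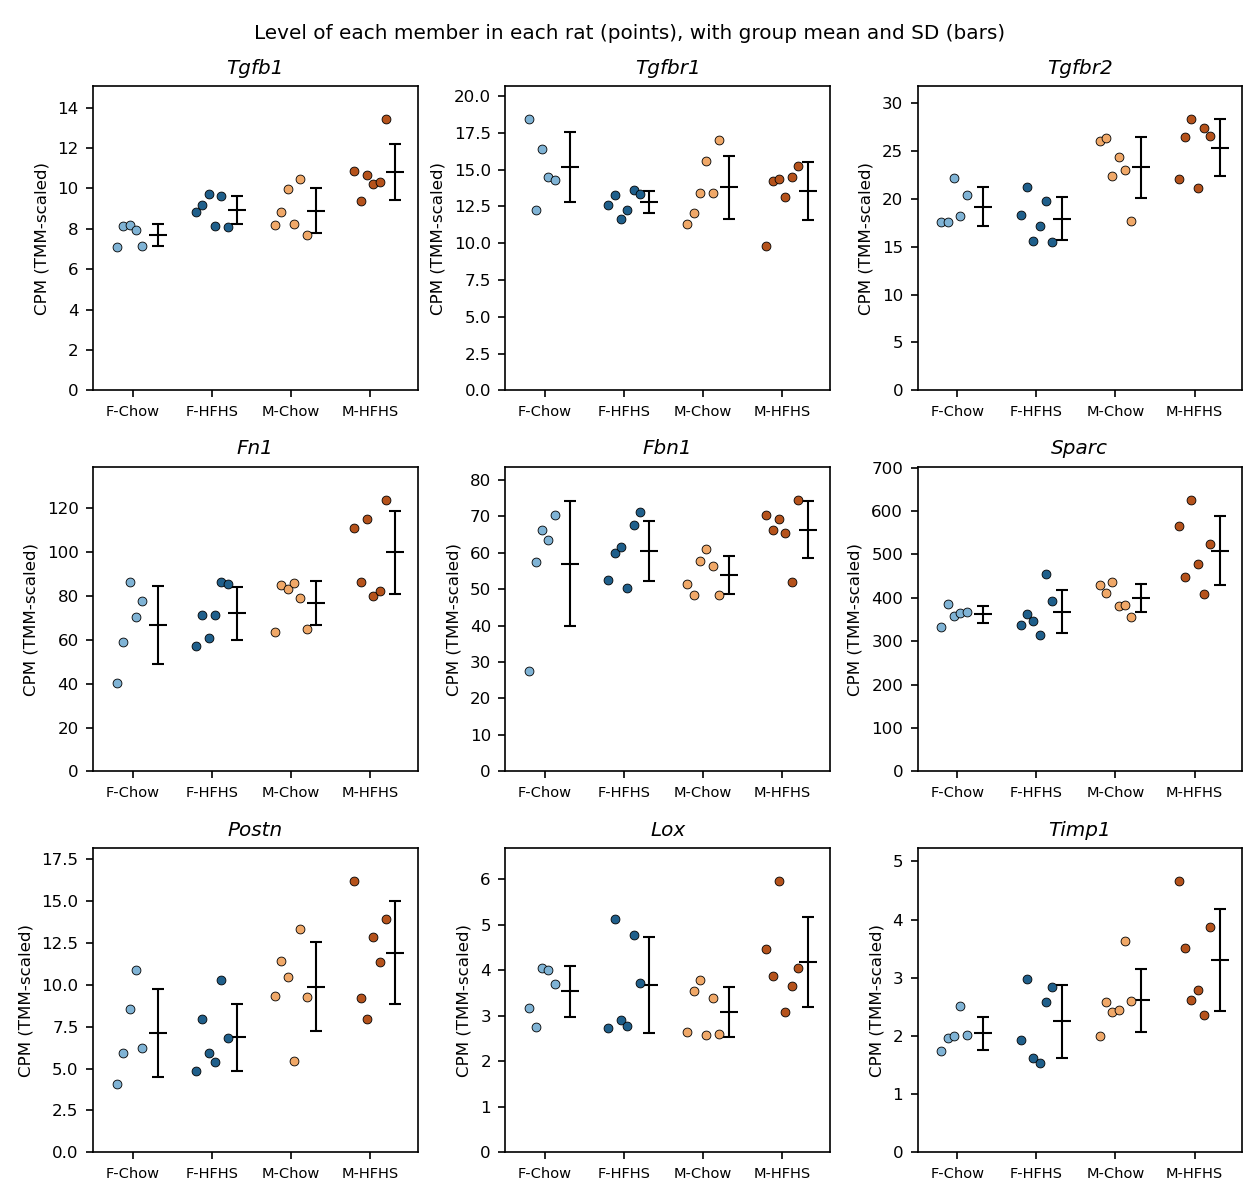
Level of each of the 9 genes in each rat, in CPM scaled by TMM on the y axis (from 0, with a range of its own for each gene), for F-Chow (5 rats), F-HFHS, M-Chow and M-HFHS (6 rats each). Points are rats and bars are the group mean with its SD. For Tgfbr2, 9 of 12 males lie above the highest female, and for Sparc the M-HFHS mean of 508.3 CPM is above the other 3 group means, which lie between 361.8 and 399.8 CPM.

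The first question was whether the sexes differ. Of the 9 genes, 5 were higher in males when both diets were averaged (Tgfb1, Tgfbr2, Sparc, Postn and Timp1) and 0 were lower. Among all 13365 genes tested, 3.8% were higher in males and 5.17% lower, and 23.5% had an unadjusted p under 0.05, as did 6 of the 9 members. The median log2 difference, males minus females, was 0.30 over the 9 members and -0.0003 over all genes tested. The members were chosen with earlier results of these data known, so the comparison with all genes is a description and not a test. These calls and the adjusted p values below come from quasi-likelihood F tests in edgeR with Benjamini-Hochberg adjustment over all genes tested, and an adjusted p under 0.05 was called. Each library came from a rat of its own, so the spread is that between animals.

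Tgfb1 encodes the ligand TGF-beta 1 (rn6 chromosome 1, 82480195 to 82497199, plus strand). It was at 7.09, 7.15, 7.92, 8.13 and 8.21 CPM in the 5 F-Chow rats and between 8.08 and 9.71 CPM (median 9.01) in F-HFHS. In males it lay between 7.68 and 10.5 CPM (median 8.54) on chow and between 9.40 and 13.5 CPM (median 10.5) on HFHS. Of the 12 males, 7 were above the highest female and 11 above the female median, and 2 of the 11 females were below the lowest male. The difference by sex was 0.24 ± 0.06 on the log2 scale (SE, 23 rats), 1.18-fold, with an adjusted p of 0.0201 in edgeR. Without the 3 females of conflicting labels it was 0.23 ± 0.07 and not called (adjusted p 0.0575 in edgeR).

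The receptor genes did not move together. Tgfbr2 encodes the type II receptor, which binds the ligand first (rn6 chromosome 8, 124312754 to 124399494, minus strand). It was at 17.5, 17.5, 18.2, 20.4 and 22.2 CPM in F-Chow and between 15.5 and 21.2 CPM (median 17.7) in F-HFHS. Levels in males were 17.6 to 26.3 CPM (median 23.7) on chow and 21.1 to 28.3 CPM (median 26.5) on HFHS. All males but 3 were above the highest female, and 5 females were below the lowest male. The log2 difference by sex was 0.39 ± 0.07 (SE), 1.31-fold, and its adjusted p of 0.00101 in edgeR was the smallest of the 9. Tgfbr1 encodes the type I receptor that the type II receptor activates (rn6 chromosome 5, 63050758 to 63119635, plus strand). It lay between 11.7 and 18.5 CPM in females (median 13.4) and between 9.81 and 17.0 CPM in males (median 13.8), so that the sexes overlapped almost entirely. Its log2 difference was -0.03 ± 0.08, with an adjusted p of 0.863 in edgeR, and its sign changed under limma-voom and without the 3 females of conflicting labels.

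Of the matrix protein genes, Sparc and Postn were higher in males. Sparc encodes a collagen-binding matricellular protein also called osteonectin (rn6 chromosome 10, 40742400 to 40764185, minus strand). Its level was 333.4, 357.5, 364.6, 367.7 and 385.6 CPM in F-Chow and 313.7 to 455.2 CPM (median 354.9) in F-HFHS. In males it was 355.6 to 436.4 CPM (median 397.3) on chow and 409.5 to 626.1 CPM (median 500.9) on HFHS. The sexes overlapped, with 4 of 12 males above the highest female and 4 of 11 females below the lowest male. The log2 difference by sex was 0.30 ± 0.07 (SE), with an adjusted p of 0.00483 in edgeR.

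Postn encodes periostin, a matricellular protein of collagen-rich tissue (rn6 chromosome 2, 143656793 to 143688087, plus strand). It was at 4.06, 5.91, 6.20, 8.57 and 10.9 CPM in F-Chow and between 4.82 and 10.3 CPM (median 6.39) in F-HFHS. Males had 5.47 to 13.3 CPM (median 9.89) on chow and 7.94 to 16.2 CPM (median 12.1) on HFHS. Above the highest female there were 6 of 12 males, and 11 males were above the female median. The log2 difference of 0.63 ± 0.17 (SE), 1.55-fold, was the widest of the 9, with an adjusted p of 0.0224 in edgeR. The coefficient of variation of Postn between rats of a group was 37.1% in F-Chow and 25.7% in M-HFHS, against 5.23% and 15.7% for Sparc.

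Fn1 encodes fibronectin, which assembles into fibrils on which other matrix proteins are laid down (rn6 chromosome 9, 78900103 to 78969078, minus strand). It lay between 40.3 and 86.5 CPM in females (median 71.4) and between 63.4 and 124.0 CPM in males (median 84.0). Of the 12 males, 10 were above the female median but 3 above the highest female. The log2 difference was 0.34 ± 0.11 (SE), with an adjusted p of 0.0638 in edgeR, and it was called in DESeq2 (adjusted p 0.0311), with the diets of the sample titles (0.0245), without the 3 females of conflicting labels (0.0316), and without F-Chow rat 214 (0.0309) or M-Chow rat 111 (0.0487). Fbn1 encodes fibrillin-1, the backbone of the microfibrils that hold latent TGF-beta complexes (rn6 chromosome 3, 117569697 to 117766120, minus strand). It was at 27.5 to 71.2 CPM in females (median 61.6) and 48.3 to 74.5 CPM in males (median 59.4). The log2 difference was 0.03 ± 0.11, adjusted p 0.918 in edgeR, and its sign changed under limma-voom and without the 3 females of conflicting labels.

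Timp1 and Lox modify the matrix. Timp1 encodes a tissue inhibitor of metalloproteinases (rn6 chromosome X, 1364786 to 1369384, minus strand). Its levels were low, at 1.74, 1.96, 2.01, 2.01 and 2.52 CPM in F-Chow and 1.54 to 2.97 CPM (median 2.26) in F-HFHS, from 31 to 127 counts per female. Males had 1.998 to 3.63 CPM (median 2.52) on chow and 2.35 to 4.67 CPM (median 3.15) on HFHS, from 59 to 199 counts. Of the males 4 were above the highest female and 11 above the female median, and 5 females were below the lowest male. The log2 difference was 0.45 ± 0.13 (SE), 1.37-fold, with an adjusted p of 0.0358 in edgeR. That call was lost, with adjusted p values of 0.0531 to 0.0666, when F-Chow rat 205, 213 or 229, F-HFHS rat 201, 209 or 210, M-Chow rat 116, or M-HFHS rat 101, 102 or 106 was left out. Timp1 lies within Syn1 on the opposite strand, and Syn1 had 127 counts over all rats against 2238 for Timp1.

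Lox encodes lysyl oxidase, which crosslinks collagen and elastin (rn6 chromosome 18, 47500330 to 47577819, minus strand). It was at 2.74 to 5.13 CPM in females (median 3.69) and 2.58 to 5.97 CPM in males (median 3.60). The log2 difference by sex was -0.0036 ± 0.13, adjusted p 0.990 in edgeR, with a sign that depended on the scaling. Lox overlaps Zfp474 on the opposite strand, which had 451 counts over all rats against 3097 for Lox, and the sources used here do not say whether counting used the strand.

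With the mean hepatocyte marker level of each rat as a covariate, 0 of the 9 genes were called by sex in edgeR, with 4 at an unadjusted p under 0.05. Of all genes tested, 0.307% were called with that covariate, in either direction, and 10.6% had an unadjusted p under 0.05. The estimates for Tgfb1, Tgfbr2 and Sparc were then 0.26 ± 0.12, 0.47 ± 0.13 and 0.39 ± 0.12, and those for Postn and Timp1 0.57 ± 0.33 and 0.35 ± 0.25. The estimates stayed positive while their standard errors were wider than without the covariate. Other cell type markers were counted by sex without that covariate, where 3.8% of all genes tested were higher in males and 5.17% lower. Of 10 endothelial markers tested 7 were higher in males and 0 lower, and their summed level was 399.7 to 512.8 CPM in females and 459.3 to 614.1 CPM in males. Of 8 tendon markers 2 were higher in males and 0 lower, with summed levels of 73.6 to 167.4 CPM in females and 96.2 to 303.6 CPM in males. Those 2, Thbs4 and Kera, are also in the pathway lists below, so their calls appear in both places. Of 10 pericyte and smooth muscle markers 3 were higher and 0 lower, with sums of 689.5 to 821.3 CPM in females and 728.3 to 961.2 CPM in males. Fibroblast markers had 1 of 10 higher and 1 lower, with sums of 685.4 to 1526 CPM in females and 972.9 to 1521 CPM in males. In each of these lists at least 1 count was found for every marker listed in the table, and the part of these cell types in the members' differences was not tested.

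The sexes were then compared within each diet. On HFHS, 2 of the 9 genes were higher in males, Tgfbr2 and Sparc, and 0 lower, where 1.99% of all genes tested were higher and 2.84% lower. The log2 differences were 0.50 ± 0.10 for Tgfbr2 and 0.46 ± 0.09 for Sparc, with adjusted p values of 0.00618 and 0.00606 in edgeR. For Tgfbr2, 5 of 6 M-HFHS rats were above the highest F-HFHS rat, and for Sparc 4 of 6. For all 9 genes the levels of F-HFHS and M-HFHS rats overlapped, and the share of all genes that do so is not given here. Postn (0.79 ± 0.24, adjusted p 0.0552 in edgeR), Tgfb1 (0.28 ± 0.09, 0.0743), Fn1 (0.47 ± 0.16, 0.084) and Timp1 (0.55 ± 0.18, 0.0862) were not called, although each had an unadjusted p under 0.05, as had 19.9% of all genes tested on HFHS. With the hepatocyte marker level as a covariate, Tgfbr2 (0.56 ± 0.13, adjusted p 0.0463 in edgeR) and Sparc (0.53 ± 0.12, 0.0414) were called on HFHS. Both were near the threshold, and 0.801% of all genes were called with that covariate, in either direction. The count on HFHS was 4 in DESeq2 (with Fn1 and Postn), where 5.85% of all genes were called in either direction. It was 4 without the 3 females of conflicting labels (5.58% of all genes) or without F-Chow rat 205 alone (5.72%). With the diets of the sample titles it was 6 (10.1%). On chow, 0 of the 9 genes were called in edgeR, DESeq2 or limma-voom, with 2 at an unadjusted p under 0.05 in edgeR (Tgfb1 and Tgfbr2), 3 in DESeq2 and 1 in limma-voom. Of all genes tested, 0.307% were higher and 1.41% lower in males on chow, and 11.9% had an unadjusted p under 0.05. The log2 differences on chow were 0.28 ± 0.10 for Tgfbr2, 0.14 ± 0.10 for Sparc and 0.48 ± 0.25 for Postn.

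**Figure D2:**
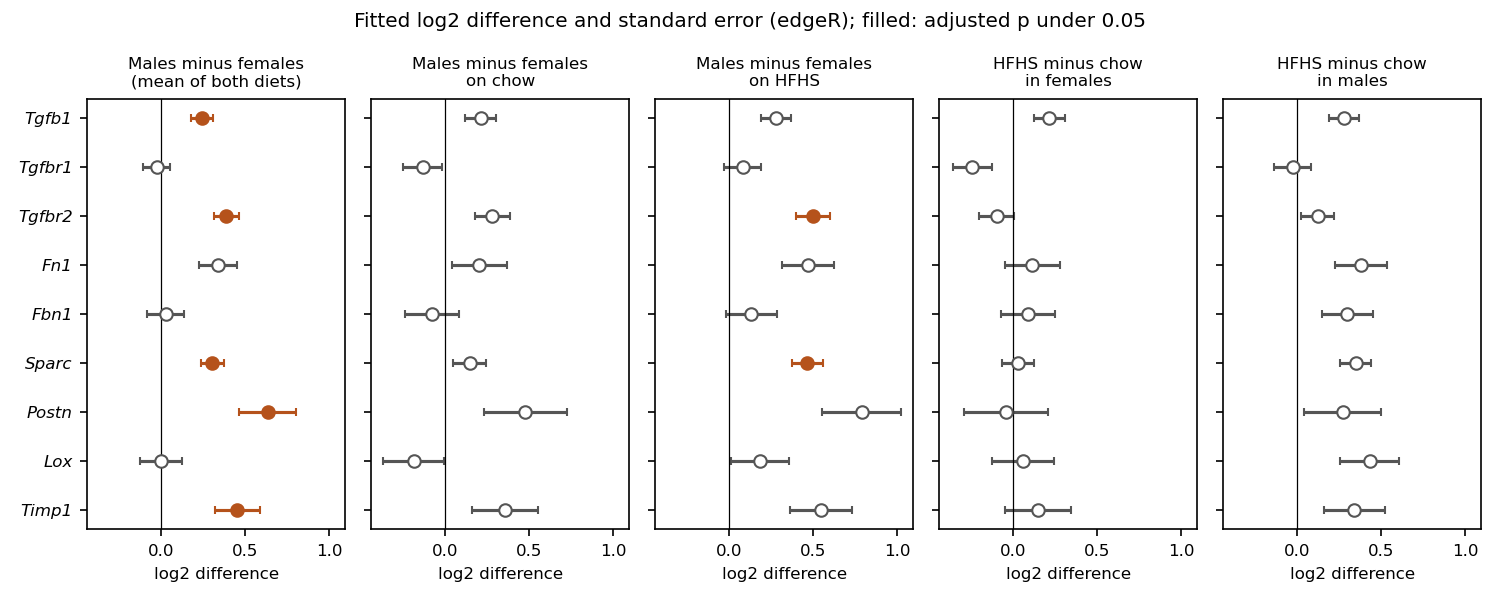
Log2 differences of the 9 genes fitted in edgeR (x axis), with the standard error as bars, for males minus females over both diets, on chow and on HFHS, and for HFHS minus chow in females and in males. Filled points had an adjusted p under 0.05: 5 genes over both diets, 0 on chow, 2 on HFHS and 0 for diet in either sex.

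The study also asked how the HFHS diet acted in each sex. In males, 0 of the 9 genes were called by diet in edgeR, DESeq2 or limma-voom, where edgeR called 0.0224% of all genes tested. At an unadjusted p under 0.05 there were 4 of 9 in edgeR (Tgfb1, Fn1, Sparc and Lox), against 7.91% of all genes tested, and 5 in DESeq2 and in limma-voom. The median log2 difference, HFHS minus chow, was 0.30 over the members and -0.01 over all genes. Sparc was 0.35 ± 0.09 higher on the log2 scale in M-HFHS (adjusted p 0.347 in edgeR), and 5 of 6 M-HFHS rats were above the highest M-Chow rat. Tgfb1 differed by 0.28 ± 0.09 (adjusted p 0.456 in edgeR), with 3 of 6 M-HFHS rats above the highest M-Chow rat and all 6 above the M-Chow median. Lox differed by 0.43 ± 0.17 (adjusted p 0.552) and Fn1 by 0.38 ± 0.16 (adjusted p 0.565). For Fbn1, not among the 4, 5 of 6 M-HFHS rats were above the highest M-Chow rat, with M-HFHS values of 51.9 to 74.5 CPM (median 67.8) against 48.3 to 61.1 CPM (median 54.0). Tgfbr1 (-0.03 ± 0.11) and Tgfbr2 (0.12 ± 0.10) had the differences nearest 0 of the 9. None of these differences passed the test over all genes.

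In females, 0 of the 9 genes were called by diet in edgeR, DESeq2 or limma-voom, where edgeR called 0.015% of all genes tested. At an unadjusted p under 0.05 there were 2 of 9 in each of the 3 tools, against 6.96% of all genes tested in edgeR, where they were Tgfb1 and Tgfbr1. In edgeR this count was 4 with the diets of the sample titles, where 13.5% of all genes had such a p. With those diets 1 of the 9 differences was positive. The count was 0 without the 3 females of conflicting labels, where 9.63% of all genes had such a p. It was also 0 with the hepatocyte marker level as a covariate, where 4.68% of all genes had one. The median marker sum was itself lower in F-HFHS than in F-Chow, so this covariate partly stands for diet in females. Tgfb1 had a log2 difference of 0.21 ± 0.09 (adjusted p 0.689 in edgeR), and 4 of 6 F-HFHS rats were above the highest F-Chow rat. Tgfbr1 had a difference of -0.24 ± 0.11 (adjusted p 0.709), with F-HFHS rats at 11.7 to 13.6 CPM (median 12.9) and the F-Chow rats at 12.2, 14.3, 14.5, 16.4 and 18.5 CPM. The other 7 genes had differences between -0.10 and 0.15 with standard errors of 0.10 to 0.25. The diet directions in females rest on the 3 rats with conflicting labels: Fn1, Fbn1, Sparc, Lox and Timp1 were positive with the column codes and negative with the titles, at -0.37, -0.39, -0.19, -0.19 and -0.24. The Cyp1a1 levels of these 3 rats went with the codes.

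Averaged over the sexes, 0 of the 9 genes were called by diet in edgeR, where 0.0524% of all genes were, and DESeq2 and limma-voom also called 0. Tgfb1, Fn1 and Sparc had an unadjusted p under 0.05 in edgeR, as did 9.77% of all genes tested, and the largest of the differences was that of Tgfb1 at 0.25 ± 0.06 (adjusted p 0.212). The interaction, the diet difference in males minus that in females, was tested in either direction. That test called 0 of the 9 genes and 0% of all genes in edgeR, and 0 of the 9 in DESeq2 and limma-voom. Sparc, at 0.32 ± 0.13 (adjusted p 0.983 in edgeR), was the only member with an unadjusted p under 0.05, as had 4.88% of all genes tested. In DESeq2 1 member and in limma-voom 2 had an unadjusted p under 0.05. The interaction was positive for all 9 genes, with a median of 0.22 against -0.01 over all genes, but these genes were measured in the same rats and their values are not independent. With the diets of the sample titles the interaction of Sparc was 0.54 ± 0.12 with an adjusted p of 0.0925 in edgeR, again not called. With those diets 6 of the 9 members had an unadjusted p under 0.05 for the interaction, as did 14.4% of all genes, of which 5 were called. Without the 3 females of conflicting labels these were 3 of 9 members and 9.41% of all genes, with 0 members called.

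Single rats set part of the range of the members. M-HFHS rat 106 was among the highest 3 of all 23 rats for 7 of the 9 genes and had the highest Tgfb1, Fn1 and Fbn1. M-HFHS rats 101 and 103 were each among the highest 3 for 5 genes. F-Chow rat 205, whose labels conflict, had the lowest Tgfb1, Fn1, Fbn1 and Postn of all rats and the highest Tgfbr1, and was among the lowest 3 for 6 genes. Its Fbn1 level was 27.5 CPM where the other F-Chow rats had 57.5 to 70.3 CPM.

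The other genes of the pathway were taken from 10 lists written with results of these data known. Of their 130 genes, 118 were tested, and 11 were higher and 2 lower in males when the diets were averaged. Among all genes tested, 3.8% were higher and 5.17% lower. The median log2 difference of the 118 was 0.09, against -0.0003 over all genes. In the list of ligands and latency proteins, 3 of 13 were higher in males and 0 lower. They were Ltbp1 (0.41 ± 0.07, adjusted p 0.000611 in edgeR) and Ltbp3 (0.16 ± 0.05, adjusted p 0.0499), which encode proteins that bind latent TGF-beta, and Nrros (0.35 ± 0.09, adjusted p 0.0114), which encodes a membrane protein that presents latent TGF-beta 1 on myeloid cells. Of 7 other receptors and co-receptors 0 were called in edgeR, with 1 at an unadjusted p under 0.05. Among 15 Smads and pathway inhibitors, Smad1, which mainly carries bone morphogenetic protein signals, was higher in males (0.21 ± 0.06, adjusted p 0.0198 in edgeR), and Smad7, an inhibitory Smad that TGF-beta itself induces, was lower (-0.36 ± 0.10, adjusted p 0.0297). Of 15 genes listed as TGF-beta targets 0 were called by sex in edgeR, with 4 at an unadjusted p under 0.05 where 23.5% of all genes tested had one, and the median of that list was 0.19.

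Among 18 matricellular and adhesive glycoproteins, 5 were higher in males and 0 lower. Lamb1 (0.36 ± 0.09), Lama4 (0.33 ± 0.09) and Nid1 (0.28 ± 0.07) encode basement membrane proteins, Thbs4 (0.69 ± 0.19) encodes a thrombospondin of tendon and muscle, and Sparcl1 (0.26 ± 0.07) is a close relative of Sparc. Of 11 elastic and microfibril genes, Eln, which encodes elastin, was lower in males (-0.37 ± 0.09, adjusted p 0.0119 in edgeR) and 0 were higher. Of 7 small leucine-rich proteoglycans, Prelp (0.34 ± 0.09) and Kera (1.10 ± 0.33) were higher and 0 lower. In edgeR 0 of 14 crosslinking and collagen-modifying enzymes, 0 of 15 matrix proteases and inhibitors and 0 of 4 fibrillar collagens were called by sex, with 1, 6 and 3 of them at an unadjusted p under 0.05, against the 23.5% of all genes tested. Col1a1 and Col3a1, which encode chains of collagens I and III, had differences by sex of 0.56 ± 0.20 and 0.30 ± 0.10 with adjusted p values of 0.0905 and 0.071 in edgeR.

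On HFHS alone, 7 of the 118 genes were higher and 2 lower in males, where 1.99% of all genes tested were higher and 2.84% lower. Ltbp1, Nrros, Smad1, Lama4, Lamb1 and Nid1 were higher and Smad7 lower here as they were over both diets, Fbln5 (0.27 ± 0.08), which encodes an elastic fiber protein, was higher, and Tagln (-0.24 ± 0.06), a smooth muscle gene on the target list, was lower. In edgeR, 0 of the 118 genes were called by diet in females, in males or averaged over the sexes, with 9, 17 and 16 at an unadjusted p under 0.05, against 6.96%, 7.91% and 9.77% of all genes tested.

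**Figure D3:**
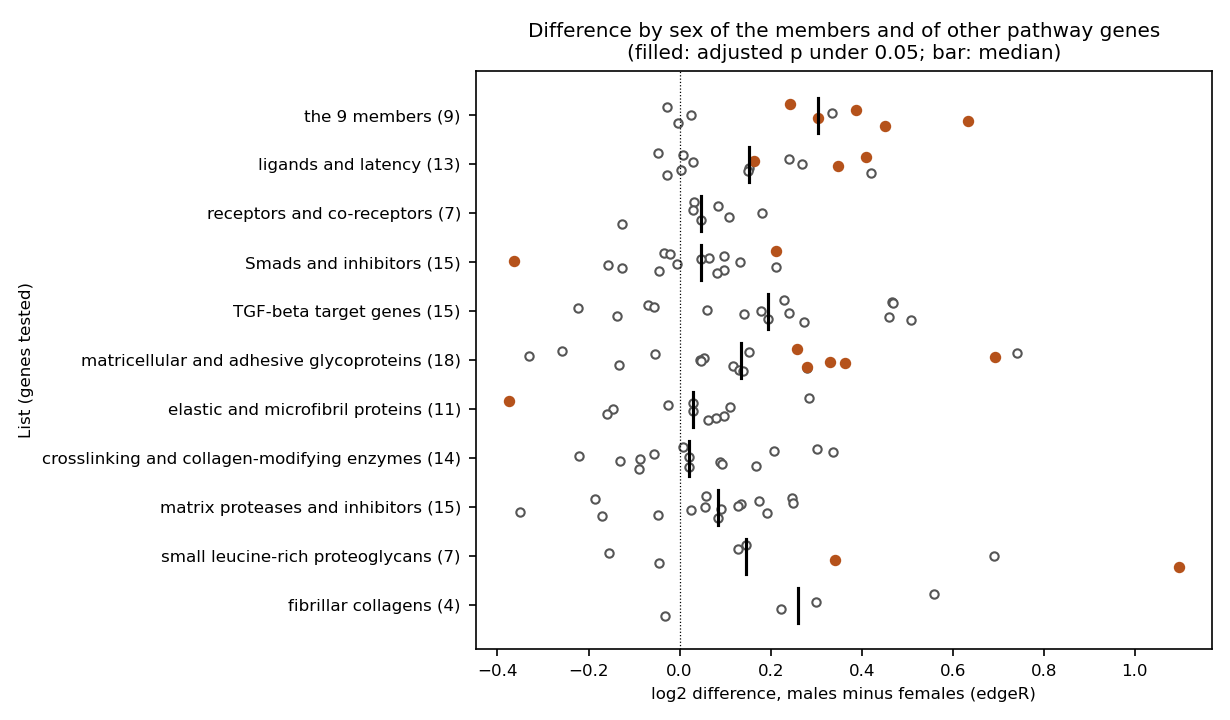
Log2 difference by sex, males minus females over both diets (x axis, edgeR), of the 9 members and of the genes tested in the 10 other pathway lists (y axis, number tested in parentheses). Points are genes, filled where the adjusted p was under 0.05, and bars are medians, which are 0.30 for the members and between 0.02 and 0.26 for the other lists.

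The last question was how the members varied together from rat to rat once the group means were removed. Over 23 rats, 6 of the 36 pairs of members had correlated deviations of log2 CPM in a permutation test within groups (100000 permutations, two-sided) with adjustment over the 36 pairs, and all 6 were positive. Fn1 and Fbn1 were the closest pair, with r = 0.80 (permutation p = 5e-05, adjusted 0.0018) and rho = 0.81 (permutation p = 1e-05, the smallest the permutations can give, adjusted 0.00036), and r was 0.68 without the 2 rats farthest from the median of Fn1. Fn1 was also correlated with Lox (r = 0.61, permutation p = 0.0024, adjusted 0.0224; rho = 0.62, permutation p = 0.0037, adjusted 0.0331), with r = 0.63 without the 2 farthest rats. Sparc was correlated with Lox (r = 0.62, permutation p = 0.0054, adjusted 0.0323; rho = 0.59, permutation p = 0.0077, adjusted 0.0464), and r was 0.44 without the 2 farthest rats.

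The remaining called pairs were also of matrix genes. For Fn1 and Sparc r was 0.55 (permutation p = 0.0049, adjusted 0.0323) and rho 0.60 (permutation p = 0.006, adjusted 0.0431), with r = 0.54 without the 2 farthest rats. For Fbn1 and Sparc r was 0.47 (permutation p = 0.0014, adjusted 0.0224) and rho 0.57 (permutation p = 0.0025, adjusted 0.0331), with r = 0.43 without the 2 farthest rats. For Postn and Timp1 r was 0.61 (permutation p = 0.0025, adjusted 0.0224) and rho 0.62 (permutation p = 0.0028, adjusted 0.0331), with r = 0.63 without the 2 farthest rats. Tgfb1 and the receptor genes were in none of the 6 pairs. Tgfb1 and Postn came near, with r = 0.52 (permutation p = 0.015, adjusted 0.0675). With RLE scaling in place of TMM 8 pairs passed, and Tgfb1 and Postn were 1 of them (r = 0.55, permutation p = 0.0091, adjusted 0.0431). Of all 36 pairs 29 had a positive r, with a median of 0.35, and the negative r values beyond -0.1 all involved Tgfbr1. Genes of 1 rat share a library and its depth. Without the 3 females of conflicting labels 0 pairs passed in the permutation test, with 6 at an unadjusted p under 0.05, and the r of Fn1 and Fbn1 was then 0.59 (20 rats, permutation p = 0.011, adjusted 0.138). With the diets of the sample titles 1 pair passed, Fn1 and Fbn1 (r = 0.74). Leaving out F-Chow rat 205 left 2 pairs, M-HFHS rat 101 or 105 left 3 and M-HFHS rat 103 gave 11.

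**Figure D4:**
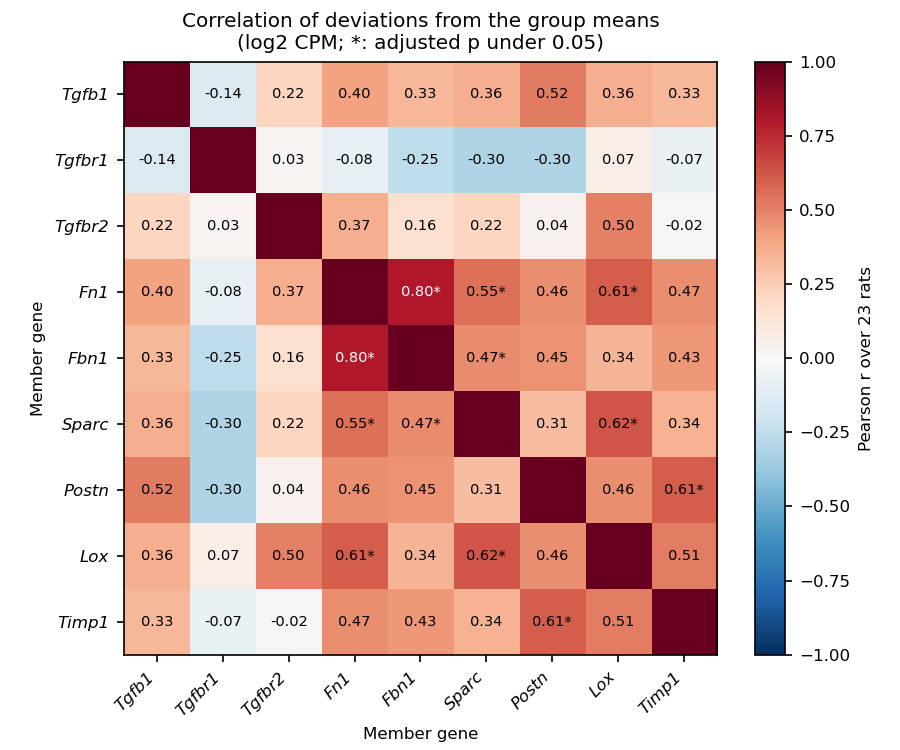
Pearson r over 23 rats of the deviations of log2 CPM from the group means for each pair of the 9 genes (x and y axes), on a color scale from -1 to 1. Stars mark the 6 pairs with an adjusted permutation p under 0.05, all of them positive and all among Fn1, Fbn1, Sparc, Lox, Postn and Timp1.

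Among 11261 other genes with a mean of at least 1 CPM, those whose deviations were most like a member's over the 23 rats are given as a description, without a test. The highest r values were those of Fbn1 with Oaf (0.91), Lamb1 (0.91) and Sirpa (0.90). For Fn1 they were Serpinf1 (0.88), Col14a1 (0.87), a fibril-associated collagen, and Cpq (0.84), and for Sparc they were Col18a1 (0.83), a basement membrane collagen, Spon2 (0.79) and Crip2 (0.77). For Lox the nearest genes were Col1a1 (0.74), P3h3 (0.71), a prolyl hydroxylase of collagen, and Loxl3 (0.70), a relative of Lox. Postn was most like Dcps (0.81), Cdk14 (0.78) and Cbr3, and Tgfb1 most like Cd44 (0.75), Prelid1 and Icoslg (0.71). Genes like Timp1 included Prr5 (0.75) and Cmtm7 (0.72). Tgfbr2 was most like Dnm2 (0.75), Tpp1 (0.75) and Pcdhgc3 (0.73), and Tgfbr1 most like Lmbrd1 (0.79), Setd2 (0.76) and Ankrd17. Of these genes, Lamb1 and Col18a1 were themselves called higher in males in edgeR, by 0.36 and 0.26 on the log2 scale.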

How the data were processed

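Poly-A RNA of gastrocnemius was sequenced from directional TruSeq libraries. Per the labels and the study's methods, the authors used fastp for trimming, STAR 2.7.6a for alignment to rn6, and SeqMonk 1.48.1 for counting over merged exons. The submitters' notes also name DESeq2 1.30.1. The deposited table holds raw counts per gene and rat, without normalization, in 1 column per rat, with 0 columns left unused. Of its 18919 entries, 16 had no gene name (6.57e-05% to 0.000294% of a rat's counts) and were not analysed, and 129 symbols stood for several entries. None of the 253 pairs of libraries was identical. Annotation release and strand setting are not given in the sources used here.

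The count model was fitted in edgeR 4.0.16 (R 4.3.3) with filterByExpr, TMM, robust quasi-likelihood F tests and 4 group means for the 23 rats. P values were adjusted by Benjamini-Hochberg over 13365 genes, with a threshold of 0.05. Log2 levels used a prior count of 2. As alternatives, scaling was changed to RLE, the filter to a mean count over 0.1 or to 1 CPM in 5 or more rats, and the tool to DESeq2 1.42.0 or limma-voom with quality weights (limma 3.58.1). Diets were also taken from the titles, the 3 females of conflicting labels or each rat in turn were left out, a hepatocyte covariate or the title number as a block was added, and each sex was fitted alone. DESeq2 on each sex alone was added after seeing the data. The scripts were tested on simulated data. Pairs were tested in Python 3.11.15 with numpy 2.4.6 and scipy 1.17.1.

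The 9 members are always named. Of each pathway list, up to 4 called genes with the smallest p by sex are named, or all where 5 or fewer were called, and for each member the 3 genes most like it, of which 1 is not reported here. Col1a1 and Col3a1 were named after their values were seen. The members, lists and rules were chosen with earlier results of these data known. Lists of macrophage, adipocyte, Schwann cell, muscle fiber and satellite cell markers were also counted by sex: 0 were called in the first 4, and in the last 0 were higher and 1 of 6 lower.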

Additional observations from a re-analysis of the deposited data

Results flagged for a closer look

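In 2 of the 36 combinations of a member and a group, the sample at one end lay farther from its nearest neighbor, relative to the range of the group, than Dixon's 95% critical value allows. Chance gives this in about 1 of 20 groups. Tgfb1 in M-HFHS was highest in rat 106 at 13.46 CPM, where the next rat had 10.87 CPM and the lowest 9.404 CPM, so the gap was 0.6386 of the range. Timp1 in M-Chow was highest in rat 116 at 3.632 CPM, where the next rat had 2.601 CPM and the lowest 1.998 CPM, a gap of 0.631 of the range. Without M-HFHS rat 106 the sex call of Tgfb1 was kept. Without M-Chow rat 116 the log2 difference of Timp1 by sex was 0.40 with an adjusted p of 0.0648 in edgeR.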

How the results depend on the processing

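Of the 5 members called by sex, Tgfb1, Tgfbr2, Sparc and Postn were called in edgeR without each of the 23 rats in turn and Timp1 without 13 of them. Without the 3 females of conflicting labels Tgfb1 was not called (adjusted p 0.0575). The count of members called by sex was 0 with the hepatocyte covariate. On HFHS it was 4 in DESeq2, 6 with title diets, 4 without the 3 females, and 2 to 4 without single rats. The count of correlated pairs was 8 with RLE size factors, 0 without the 3 females, 1 with title diets and 2 to 11 without single rats. The counts of 0 by diet, by interaction and by sex on chow were 0 under every alternative run. The numbers in the sample titles did not pair rats: over 32 same-numbered pairs the correlation of deviations was -0.274 to 0.263 (median -0.0294), 3 pairs were over 0.1, and 4 of 23 rats were most like a rat of their own number. With that number as a replicate block, 4 members were called by sex and Timp1 was not (adjusted p 0.0763). Over all genes, edgeR called 2 genes by diet in females and 3 in males, DESeq2 6 and 25, limma-voom 9 and 17, and DESeq2 on each sex alone 17 and 90. No alternative moved the median of all genes by over 0.1. Members near 0 changed sign, and the cause was not tested. By sex, Tgfbr1 was 0.0027 with limma-voom and 0.0353 without the 3 females, Fbn1 -0.0271 and -0.0032, and Lox 0.0007 with RLE and with DESeq2, 0.0016 and 0.0013 with the mean count and CPM filters, 0.0082 with title diets, 0.0423 without the 3 females and 0.0008 with the block. By diet in females, title diets gave Fn1 -0.3663, Fbn1 -0.3941, Sparc -0.1917, Lox -0.1947 and Timp1 -0.2374, and leaving out the 3 females gave -0.1738, -0.2049, -0.1199, -0.1001 and -0.0691. With limma-voom Fn1 was -0.002, Fbn1 -0.0128 and Lox -0.0834, Lox was -0.0614 with the hepatocyte covariate, and Postn was 0.0823 with the block. Without single rats, the ranges by sex were -0.0635 to 0.0124 for Tgfbr1, -0.0615 to 0.0735 for Fbn1 and -0.0666 to 0.06 for Lox. By diet in females they were -0.0212 to 0.2236 for Fn1, -0.0882 to 0.1769 for Fbn1, -0.0413 to 0.0737 for Sparc, -0.193 to 0.152 for Postn and -0.0536 to 0.1391 for Lox, and by diet in males -0.0736 to 0.0491 for Tgfbr1. Timp1 had few reads, at 31 to 199 counts per rat.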
